A study of Mus musculus with 9 samples.

Results

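Known transcriptional targets of p53 (8 genes) and the 3 genes of the GADD45 family were followed in lung fibroblasts of mice given doxorubicin or its vehicle. Gadd45a belongs to both, so that the set holds 10 genes of the 55302 gene symbols in the deposited tables. They are Cdkn1a, Mdm2, Ccng1, Bax, Phlda3, Trp53inp1, Sesn2, Gadd45a, Gadd45b and Gadd45g, and each was found by its symbol in all 9 libraries. The rule lists gene names, and the names were put together with earlier results of these data known.

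p53 is a transcription factor that is stabilised when DNA is damaged. It switches on genes that halt the cell cycle, repair DNA, trigger apoptosis or limit p53 itself, and their products make up much of the early answer of a cell to a genotoxic drug. Doxorubicin, an anthracycline, poisons topoisomerase II and breaks DNA. The GADD45 proteins are small stress proteins that bind cell cycle and MAP kinase regulators, and Gadd45a is the family member most closely tied to p53, whereas Gadd45b and Gadd45g are known for induction by cytokines and other stress signals.

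The fibroblasts came from lungs at an early stage of metastasis in female mice whose orthotopic triple-negative breast tumor had been resected, so that all mice of both groups had carried a tumor and undergone surgery. Mice were 8 weeks old when injected with tumor cells, and tumors were removed 2 weeks later. DOX mice (n = 5) then received 2 doses of doxorubicin at 5 mg/kg, and PBS mice (n = 4) received vehicle, which the labels call Pbs or saline. The first dose followed surgery by 4 days, the doses were 5 days apart, and lungs were collected 24 h after the second. The sort took CD45-, EpCAM- and PDGFRα+ cells according to the labels, and the study's methods add CD31-. Which of the study's tumor models and mouse strains gave these libraries is not given in the sources used here.

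Each library holds MARS-seq reads, a bulk method that tags the 3′ end of polyadenylated RNA. A normalized count below is a gene's read number scaled by its library's size factor. Reads per library numbered 497637 to 734114 in PBS and 432322 to 1285816 in DOX, and the worth of 1 read ran from 0.512 normalized counts (DOX replicate 5, with the most reads) to 1.94 (DOX replicate 2, with the fewest). Col1a1, a chain of type I collagen and a marker of fibroblasts, had a mean of 1795 ± 550 normalized counts in the 4 PBS libraries and 1400 ± 239 in the 5 DOX libraries (mean ± SD here and below). Col1a1 was the highest of the 12 fibroblast markers listed, and Gsn was next at 486 ± 118 and 748 ± 203. Col1a2 was at 80.8 ± 47.0 and 67.7 ± 18.1, and Lum at 0.778 ± 1.01 and 1.00 ± 1.25. The sorting gene Pdgfra was low, at 4.31 ± 5.22 and 4.50 ± 3.51. PBS replicate 4 stood apart from the other libraries. Its summed granulocyte markers reached 1121 normalized counts against 28.0 to 36.6 in the other PBS libraries and 65.8 to 92.6 in DOX. Its summed epithelial markers reached 483 against 15.8 to 36.6 in the other PBS libraries and 44.5 to 179 in DOX. Both sums were thus higher in every DOX library than in PBS replicates 1 to 3. In DOX, Ly6g made up most of the granulocyte sum at 49.7 to 84.4, with S100a8 at 0 to 15.3. Of the epithelial markers, Sftpc stood at 12.99 to 85.2 in DOX and Sftpb at 3.71 to 46.5. Cdh1 was at 0 in DOX, but also in PBS replicate 4, whose epithelial sum was the highest. The part of these markers in the members' values was not tested. Fibroblast markers of PBS replicate 4 summed to 1727 against 2487 to 3494 elsewhere, and Col1a1 alone made up 1027 of the 1727. Values of the members without PBS replicate 4 are given beside several results. In bulk RNA, fewer cells of a type and less RNA per cell cannot be told apart.

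The promoters of the members that carry the comparison are shown first, since p53 and stress factors act there. The windows are RefSeq sequences of mm10, read 5′ to 3′ on the strand of the gene, and end 1 base before the RefSeq start of transcription. By the GENCODE start, which differs from that of RefSeq, the last 50 of the 250 bases of the Gadd45a window lie inside the gene, and 230 of the 250 are shown, 30 of them inside it. In the Gadd45b window 18 and in the Cdkn1a window 3 bases lie inside the gene by GENCODE. Capitals mark exact matches to the p53 half-site consensus, to the E-box CACGTG or to the TATA box TATAAA, each searched on both strands.
Cdkn1a, chr17:29090729-29090978, plus strand: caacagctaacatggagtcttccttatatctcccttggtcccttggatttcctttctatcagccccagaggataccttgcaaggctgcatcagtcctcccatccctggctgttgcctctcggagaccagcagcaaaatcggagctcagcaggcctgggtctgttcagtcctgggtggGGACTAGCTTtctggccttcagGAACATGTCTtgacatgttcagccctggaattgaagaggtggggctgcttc
Gadd45a, chr6:67037428-67037657, minus strand: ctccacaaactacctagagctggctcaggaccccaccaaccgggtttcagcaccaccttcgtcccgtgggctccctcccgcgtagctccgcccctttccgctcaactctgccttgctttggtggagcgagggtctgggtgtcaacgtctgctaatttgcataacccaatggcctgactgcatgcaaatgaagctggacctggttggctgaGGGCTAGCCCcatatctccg
Gadd45b, chr10:80929841-80930090, plus strand: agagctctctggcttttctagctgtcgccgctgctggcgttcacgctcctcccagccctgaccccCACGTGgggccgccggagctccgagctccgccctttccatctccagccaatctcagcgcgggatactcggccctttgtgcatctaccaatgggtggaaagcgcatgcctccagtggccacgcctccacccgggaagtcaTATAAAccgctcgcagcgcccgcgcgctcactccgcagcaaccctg
Gadd45g, chr13:51846425-51846674, plus strand: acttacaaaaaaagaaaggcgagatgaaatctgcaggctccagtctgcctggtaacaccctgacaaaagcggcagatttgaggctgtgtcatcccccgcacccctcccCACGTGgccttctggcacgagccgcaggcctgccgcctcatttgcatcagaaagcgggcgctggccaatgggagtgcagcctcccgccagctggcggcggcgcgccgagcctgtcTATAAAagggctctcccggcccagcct

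Both capital runs in the Cdkn1a window are p53 half-sites, at positions -73 to -64 and -51 to -42 from the upstream RefSeq start of transcription. A downstream start of Cdkn1a has a window of its own (chr17:29093519-29093768, not printed), with no half-site. Together the half-sites of the printed window met the definition of a full site used here, 2 half-sites with a gap of 0 to 13 bases, which 21 of 32851 mouse promoter windows of this length met (0.0639%). Gadd45a held 1 half-site, at -40 to -31, and neither Gadd45b nor Gadd45g held any. Instead, the windows of Gadd45b and Gadd45g each held the E-box and the TATA box, the latter at -46 to -41 and at -27 to -22. A window was in the table for 9 of the 10 members, all but Trp53inp1. A half-site was present in 5 of these 9, namely Cdkn1a, Mdm2, Ccng1, Bax and Gadd45a. These were 5 of the 10 windows of the members, against 7.13% of all windows. The E-box was present in Bax, Gadd45b and Gadd45g and in 6.02% of all windows, and the TATA box in 12.4%. A CCAAT box (CCAAT) was present in 6 members against 33.8% of all windows, and a GC box (GGGCGG) in 7 against 32.7%, in Cdkn1a through the downstream window alone. The AP-1 site TGACTCA (4.46% of all windows) and the CRE TGACGTCA (1.55%) were present in 0 of 9. A match describes letters in a window and not binding, and distant sites, such as those in introns, were not searched.

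**Figure D1:**
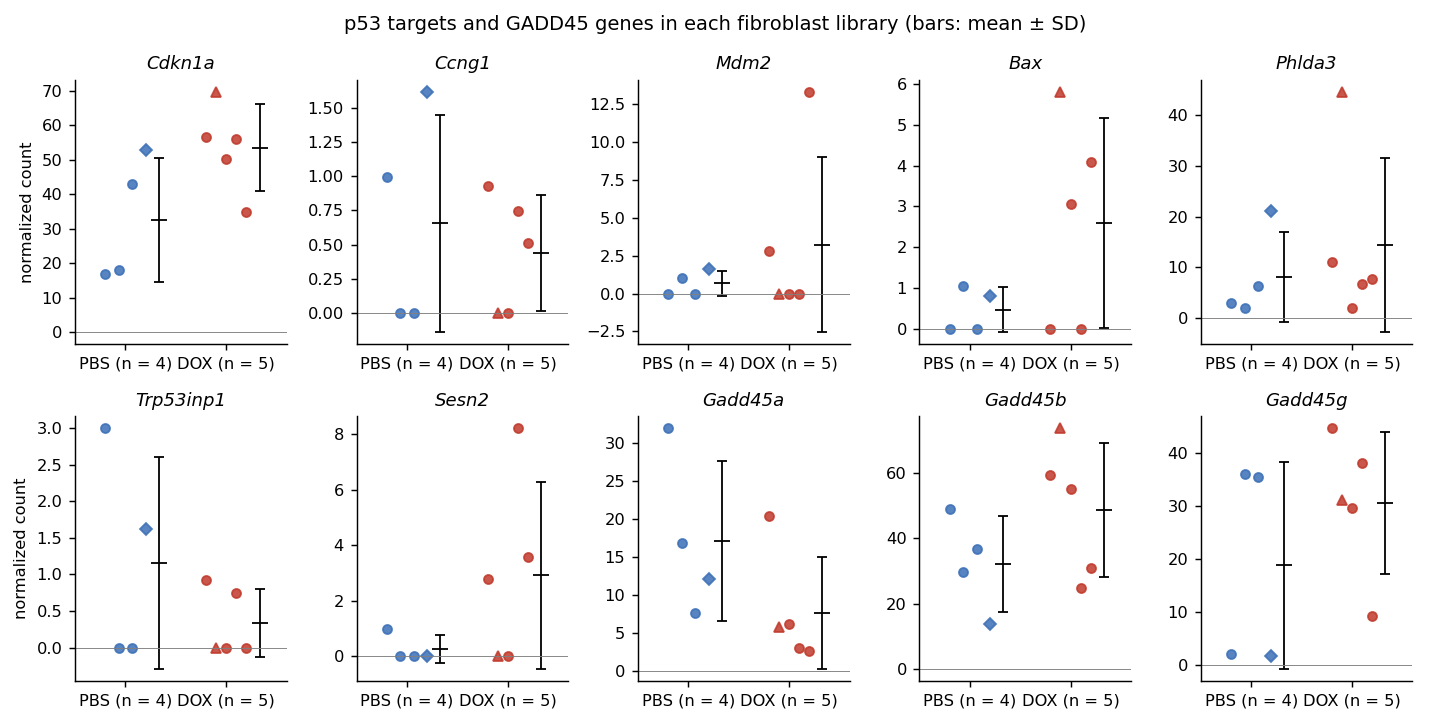
Normalized count (vertical axis, linear, own scale in each panel) of each of the 10 genes in the 4 PBS (blue) and 5 DOX (red) libraries. Points stand in order of replicate number, the diamond is PBS replicate 4, the triangle is DOX replicate 2, and the bars give mean ± SD; in every panel the 2 groups overlap, and 5 of the genes have libraries at 0.

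None of the 10 genes passed the test between DOX and PBS, and none had groups that did not overlap. By mean, 7 were higher in DOX (Cdkn1a, Mdm2, Bax, Phlda3, Sesn2, Gadd45b and Gadd45g) and 3 were lower (Ccng1, Trp53inp1 and Gadd45a). The test was limma on log2(normalized count + 1) over the 2604 genes at 10 or more normalized counts in 4 or more libraries, and p was adjusted by Benjamini and Hochberg with a threshold of 0.05. That level was reached by 4 members, Cdkn1a, Gadd45a, Gadd45b and Gadd45g. Of the 2604 genes 0 were called (0% called) and 162 had p under 0.05 before adjustment, and among the 4 members both counts were 0. On recovered reads of genes at the same level, edgeR called 0 genes (148 at p under 0.05 before adjustment), limma-voom 0 (160) and DESeq2 1 of 2589, Lin37, which is no member. The other 6 members were fitted over all 17428 genes above 0, where limma called 3 genes (0.0172%) and 0 of the 6 members. Before adjustment 459 of these genes and 0 of the 6 members had p under 0.05. Over the same genes edgeR called 32 (1603 at p under 0.05 before adjustment), limma-voom 1 (938) and DESeq2 0 of 17172 (463), with none of the 6 members among them. Groups that did not overlap were seen for 69 of the 2604 tested genes (2.65%) and for 0 of the 4 members among them. At that share few or none of 4 genes would be counted. The 6 members below that level overlapped too, and Mdm2, Ccng1, Bax, Trp53inp1 and Sesn2 had libraries at 0 in both groups. The median log2 fold change of all tested genes was -0.0092. Of the 2604, 1287 (49.4%) were fitted higher in DOX, as were 51.2% of all genes above 0.

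**Figure D2:**
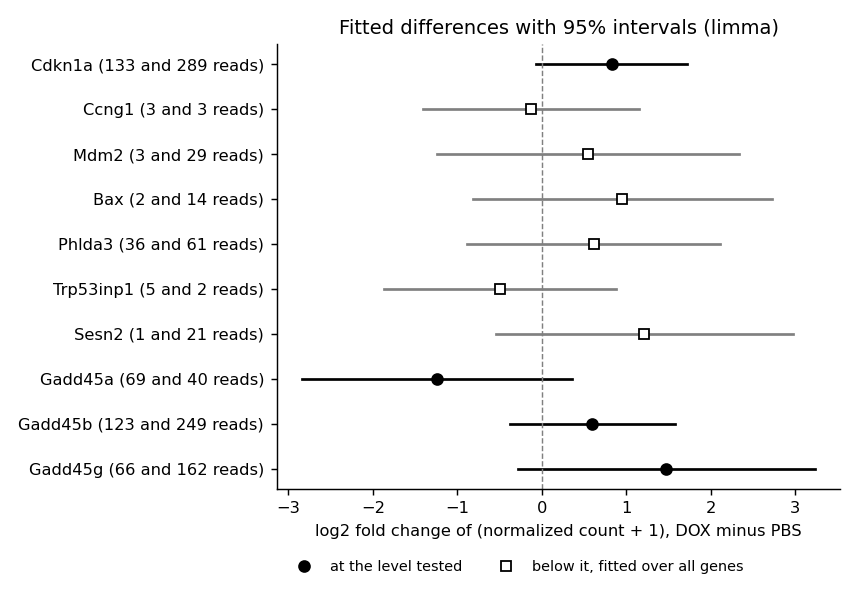
Fitted log2 fold change of (normalized count + 1), DOX minus PBS (horizontal axis), of each gene with its 95% interval from limma. Filled points are the 4 genes at the level tested, open squares the 6 below it, which were fitted over all genes above 0; the numbers are the reads in all PBS and all DOX libraries, and every interval spans 0.

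Cdkn1a encodes p21, the inhibitor of cyclin-dependent kinases through which p53 halts the cell cycle, and lies at chr17:29090976-29100727 on the plus strand. It stood at 17.0, 17.9, 42.9 and 52.7 normalized counts in PBS replicates 1 to 4, and at 56.6, 69.7, 50.1, 56.0 and 34.8 in DOX replicates 1 to 5. PBS replicates 1 and 2 were thus the lowest libraries, 3 DOX libraries were above every PBS library, and DOX replicate 5 was below 2 PBS libraries. The PBS mean was 32.6 ± 18.0 (SD, n = 4) and the DOX mean 53.4 ± 12.6 (SD, n = 5), from 133 and 289 reads. The log2 fold change was 0.83 (SE 0.42, 95% interval -0.068 to 1.73; limma, adjusted p = 0.761). Among the 4 tested members Cdkn1a had the narrowest interval, and it still spans both no difference and a difference of more than 1 on the log2 scale. Without PBS replicate 4, in which Cdkn1a was the highest of the PBS group at 52.7, the log2 fold change was 1.11 (limma, adjusted p = 0.496). It was 0.58 without PBS replicate 1 and 0.61 without PBS replicate 2, the lowest libraries (limma, adjusted p = 0.900 and 0.896). The SD between libraries was 3.06 times the SD that independent reads would give in PBS and 1.77 times in DOX. In both groups reads may be copies of the same molecule.

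Ccng1 and Mdm2, the next members by role, were near the limit of detection. Ccng1 (chr11:40748552-40755311, minus strand) encodes cyclin G1, a p53-induced regulator of the p53 and MDM2 loop. It was found by 3 reads in PBS and 3 in DOX, at 0.999, 0, 0 and 1.62 normalized counts in PBS and 0.928, 0, 0, 0.747 and 0.512 in DOX. Mdm2 (chr10:117688875-117710758, minus strand) encodes the ubiquitin ligase that marks p53 for degradation. It stood at 0, 1.06, 0 and 1.62 normalized counts in PBS and at 2.78, 0, 0, 0 and 13.3 in DOX. DOX replicate 5 alone held most of the 29 Mdm2 reads of the DOX group, against 3 reads in PBS, and 3 DOX libraries held no read. The fitted log2 fold change of Mdm2 was 0.54 (SE 0.90, 95% interval -1.24 to 2.33; limma, adjusted p = 0.834), and without DOX replicate 5 it was -0.13, so that its sign rested on that library. It was 0.81 without PBS replicate 4. For Ccng1 the value was -0.13 (SE 0.64; limma, adjusted p = 0.961). In a single library a value of 0 allows up to 3 reads, which is why libraries at 0 and libraries with 1 or 2 reads were not told apart.

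The apoptotic members were also thinly counted. Bax (chr7:45461697-45466898, minus strand) encodes the BCL-2 family protein that permeabilises the outer mitochondrial membrane. It stood at 0, 1.06, 0 and 0.810 normalized counts in PBS and 0, 5.81, 3.06, 0 and 4.10 in DOX. Of the DOX libraries, 3 were above every PBS library and 2 held no read. With 2 reads in PBS and 14 in DOX, the log2 fold change was 0.95 (SE 0.89, 95% interval -0.82 to 2.72; limma, adjusted p = 0.781).

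Phlda3 (chr1:135766119-135769136, plus strand) encodes a pleckstrin homology domain protein that restrains AKT. Its values were 3.00, 2.11, 6.31 and 21.1 normalized counts in PBS and 11.1, 44.5, 2.04, 6.72 and 7.68 in DOX. DOX replicate 2 was the highest library and PBS replicate 4 the next, while the lowest library was DOX replicate 3. The means were 8.12 ± 8.82 (SD, n = 4) and 14.4 ± 17.1 (SD, n = 5). On the log2 scale the fitted fold change was 0.61 (SE 0.75, 95% interval -0.89 to 2.12; limma, adjusted p = 0.799). It was 0.076 without DOX replicate 2 and 1.19 without PBS replicate 4. In DOX the SD of Phlda3 was 5.24 times that of independent reads, the largest such ratio among the 10 genes in either group.

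Trp53inp1 (chr4:11156431-11174379, plus strand) encodes a nuclear protein that promotes p53-dependent apoptosis and autophagy. It was found by 5 reads in PBS, at 3.00, 0, 0 and 1.62 normalized counts, and by 2 reads in DOX, at 0.928, 0, 0, 0.747 and 0. Sesn2 (chr4:132492032-132510501, minus strand) encodes sestrin 2, which lowers mTORC1 signaling under stress. It stood at 0.999, 0, 0 and 0 normalized counts in PBS and at 2.78, 0, 0, 8.22 and 3.59 in DOX. The 3 DOX libraries with Sesn2 reads were all above the highest PBS library, and 2 DOX libraries were at 0. All PBS libraries together gave 1 read, a pooled value of 0.252 normalized counts with an exact Poisson 95% interval of 0.00637 to 1.40, and all DOX libraries 21 reads, a pooled value of 3.58 (2.22 to 5.47). These intervals cover the counting of reads only and not the spread between mice. On the spread between libraries, the log2 fold change was 1.21 for Sesn2 (SE 0.88, 95% interval -0.54 to 2.97; limma, adjusted p = 0.781) and -0.50 for Trp53inp1 (SE 0.69; limma, adjusted p = 0.822). The latter was -0.32 without PBS replicate 4.

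Within the GADD45 family the members lay in different directions by mean. Gadd45a was lower in DOX, and Gadd45b and Gadd45g were higher, with no call for any of them. Gadd45a (chr6:67035096-67037457, minus strand) stood at 32.0, 16.9, 7.57 and 12.2 normalized counts in PBS and at 20.4, 5.81, 6.13, 2.99 and 2.56 in DOX. Of the 5 DOX libraries, 4 were below every PBS library, and DOX replicate 1 was above 3 of the 4. The means were 17.1 ± 10.6 (SD, n = 4) and 7.58 ± 7.35 (SD, n = 5), from 69 and 40 reads. The log2 fold change was -1.24 (SE 0.75, 95% interval -2.83 to 0.36; limma, adjusted p = 0.804). Gadd45a was thus the tested member whose mean was lower after the DNA-damaging drug, while Cdkn1a, the other tested p53 target, was higher by mean.

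Gadd45b (chr10:80930073-80932204, plus strand), an early response gene of NF-κB and TGF-β signaling, had PBS values of 48.9, 29.6, 36.6 and 13.8 normalized counts and DOX values of 59.4, 73.5, 55.2, 24.6 and 30.7. Of the DOX libraries, 3 were above every PBS library, and PBS replicate 4 was the lowest of all. The means were 32.2 ± 14.7 (SD, n = 4) and 48.7 ± 20.5 (SD, n = 5). The log2 fold change was 0.60 (SE 0.46, 95% interval -0.37 to 1.57; limma, adjusted p = 0.853), and 0.25 without PBS replicate 4.

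Gadd45g (chr13:51846678-51848468, plus strand), known as a cytokine-induced member of the family, lay at separate levels within the PBS group. Its PBS values were 2.00, 35.9, 35.3 and 1.62 normalized counts, and its DOX values 44.5, 31.0, 29.6, 38.1 and 9.22. PBS replicates 2 and 3 lay among the DOX libraries, while replicates 1 and 4 held only 2 reads each. The means were 18.7 ± 19.5 (SD, n = 4) and 30.5 ± 13.3 (SD, n = 5). The log2 fold change was 1.48 (SE 0.83, 95% interval -0.28 to 3.23; limma, adjusted p = 0.775), and 0.83 without PBS replicate 4. In PBS its SD was 4.72 times that of independent reads.

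The split of GADD45 reads within a library does not depend on its depth or size factor, and it was computed after the values of the 3 genes had been seen. Gadd45a held 38.6%, 20.5%, 9.52% and 44.1% of the GADD45 reads in PBS replicates 1 to 4, and 16.4%, 5.26%, 6.74%, 4.55% and 6.02% in DOX replicates 1 to 5. In 4 of the 5 DOX libraries this share was below that of every PBS library. In PBS replicate 4 it rested on 34 reads, with a Wilson 95% interval of 28.9% to 60.5%. Gadd45b held 35.9% to 59.0% of the reads in PBS and 37.5% to 72.3% in DOX. The share of Gadd45g ran from 2.41% to 44.4% in PBS and from 21.7% to 58.0% in DOX. Gadd45b gave 1.53, 1.75, 4.83 and 1.13 reads per Gadd45a read in PBS, and 2.91, 12.7, 9, 8.25 and 12 in DOX. The groups overlapped in this ratio through PBS replicate 3 and DOX replicate 1 alone. Gadd45g reads per Gadd45a read ran from 0.0625 to 4.67 in PBS and from 2.18 to 12.75 in DOX. Cdkn1a reads ran from 0.531 to 5.67 and from 2.77 to 18.75 per Gadd45a read. Per Gadd45b read they ran from 0.347 to 3.82 and from 0.907 to 2.27. The share of gene pairs with as little overlap was not computed. The shares compare libraries and not the abundance of the 3 transcripts, since 3′ tags were not calibrated between genes.

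**Figure D3:**
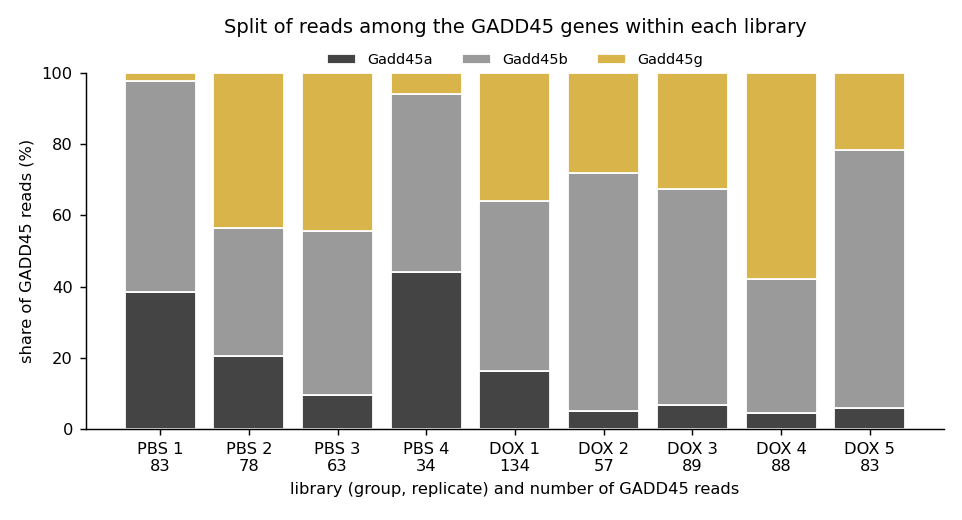
Share of all GADD45 reads (vertical axis, percent) held by Gadd45a (dark), Gadd45b (grey) and Gadd45g (yellow) in each library, with the number of GADD45 reads under the name of the library. The dark segment is 9.52% to 44.1% in PBS and 4.55% to 16.4% in DOX, and the yellow segment is under 6% in PBS replicates 1 and 4.

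The immediate early and stress genes, which rise within minutes when tissue is handled or a cell is stimulated, are set beside the GADD45 genes because Gadd45b and Gadd45g answer to similar signals. Of the 18 listed, 16 were tested, 13 had a higher fitted mean in DOX, 0 were called by limma and 0 had p under 0.05 before adjustment, with a median log2 fold change of 0.48 against -0.0092 for all tested genes. Their summed level was 860, 846, 972 and 626 normalized counts in PBS, and 1076, 1016, 1016, 629 and 628 in DOX. The libraries with the lowest sums were PBS replicate 4 and DOX replicates 4 and 5, and these held 13.8, 24.6 and 30.7 of Gadd45b, with PBS replicate 2 between the latter pair at 29.6. Gadd45g did not follow the sums, at 38.1 in DOX replicate 4 and at 2.00 in PBS replicate 1, whose sum was 860. Egr1, an immediate early transcription factor, had means of 68.6 ± 38.0 in PBS (n = 4) and 106 ± 32.8 in DOX (n = 5), and Junb, an AP-1 subunit, of 361 ± 22.4 and 256 ± 89.9. PBS replicate 4 was the lowest PBS library for both, at 18.6 against 63.9 to 109 for Egr1 and 331 against 356 to 382 for Junb. This did not hold for every gene of the list, and the median of the list was not computed without PBS replicate 4. The part of these signals in the GADD45 values was not tested.

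Other genes of the p53 pathway were listed by role, 56 in all. Of these 48 were above 0 in any library and 7 were tested. By limma 0 of the 7 were called and 0 had p under 0.05 before adjustment. Among the 7, 4 had a higher and 3 a lower fitted mean in DOX, and the median log2 fold change was 0.0067. Over all 48, 24 were fitted higher and 24 lower. Ddb2, a damage sensor of nucleotide excision repair, averaged 78.9 ± 28.3 in PBS (n = 4) and 95.7 ± 21.0 in DOX (n = 5). Btg2, an antiproliferative p53 target, was at 47.7 ± 9.08 and 50.7 ± 21.4. Trp53bp1, which binds chromatin at double-strand breaks, was at 60.6 ± 43.0 and 37.5 ± 23.6. Among the remaining tested genes, the BH3-only gene Bid was at 19.8 ± 5.33 and 15.9 ± 10.6, and the Fanconi anemia gene Fancc at 5.55 ± 3.83 and 13.4 ± 10.1. The glutaminase gene Gls2 was at 9.58 ± 2.56 and 14.4 ± 15.3. The lowest adjusted p among the 7 was 0.894 (limma). Trp53 itself, which encodes p53 and is regulated largely at the protein level, was found by 26 reads, at 0.565 ± 0.662 in PBS and 3.11 ± 3.11 in DOX. Levels of the p53 protein were not measured by these libraries.

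**Figure D4:**
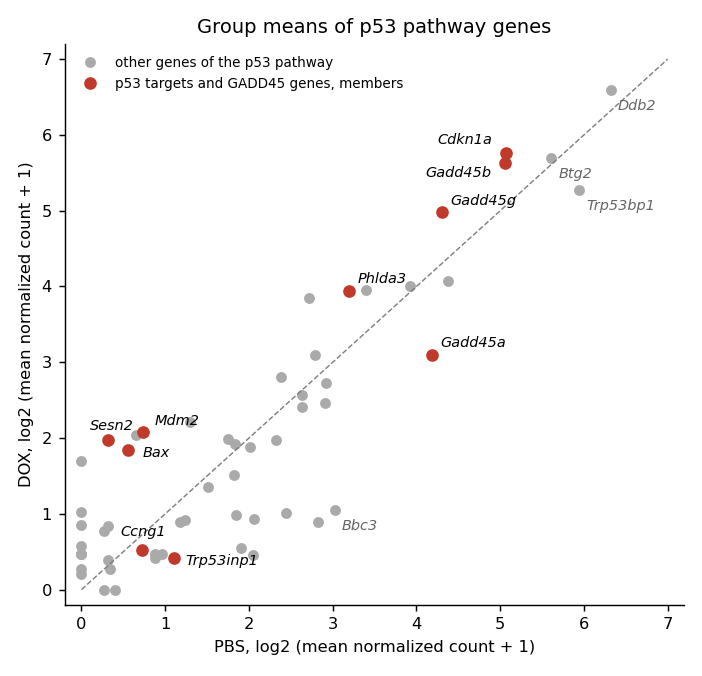
Mean normalized count in DOX (vertical) against PBS (horizontal), both as log2(mean + 1), of the 10 genes (red) and of 48 other p53 pathway genes (grey). The dashed line marks equal means; 7 of the red points lie above it and 3 below, Ccng1, Trp53inp1 and Gadd45a.

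Paralogues of the members were tested for 4 of 10 listed genes and limma called 0. Cdkn1b, which encodes the related inhibitor p27, averaged 42.9 ± 10.3 in PBS (n = 4) and 64.8 ± 40.2 in DOX (n = 5). Phlda1 was at 105 ± 32.2 and 87.9 ± 40.1, Bak1, the partner of Bax in mitochondrial permeabilisation, at 8.30 ± 5.84 and 11.7 ± 11.2, and Sesn3 at 3.04 ± 6.08 and 12.2 ± 12.3. In PBS, Sesn3 was at 0 in replicates 1 to 3 and at 12.2 in replicate 4. In the BCL-2 family beside Bax, 4 of 8 were tested, 0 were called by limma, and all 4 were fitted lower in DOX on the log2 scale. The log2 fold changes were -0.061 (SE 0.43) for Bcl2l1, -0.11 (SE 0.78) for Mcl1, -0.47 (SE 0.56) for Bid and -1.03 (SE 1.00) for Bad. Bad was at 0 in DOX replicate 2 and at 12.3 to 90.9 in the other DOX libraries. The antiapoptotic Bcl2l1 was at 62.4 ± 28.9 and 62.5 ± 31.5, the BH3-only Bad at 46.0 ± 22.6 and 45.5 ± 40.6, and the antiapoptotic Mcl1 at 12.8 ± 7.81 and 15.3 ± 16.8. Of 7 kinases, cyclins and other partners that GADD45 proteins bind, 0 reached the level tested.

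The gene of highest mean among the 10 was Cdkn1a, and the tested genes most like it over the 9 libraries were taken by Pearson correlation of log2(normalized count + 1). The highest were Gm45606 (r = 0.96), Rps3 (0.95) and Rpl35 (0.94), the latter pair encoding ribosomal proteins. The lowest were Dcaf1 (-0.96), Akap12 (-0.91) and Tmem170 (-0.83). Akap12, which encodes a scaffold of protein kinase A, averaged 164 ± 62.8 in PBS (n = 4) and 88.3 ± 9.37 in DOX (n = 5), and Rps3 at 67.9 ± 28.1 and 102 ± 16.8. The coefficients are a description over 9 libraries that share size factors, chosen from 2604 genes.

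On the annotation, no exon of another strand covered the 3′ end of any member, where the tags lie. The noncoding E230016M11Rik overlapped exons of Gadd45a by 337 bases on the other strand and averaged 0.669 ± 0.806 in PBS (n = 4) and 0.490 ± 0.838 in DOX (n = 5). AC167363.2 overlapped exons of Cdkn1a by 273 bases on the other strand and was not analysed here. The strand setting of the count is not given in the sources used here. Outside the 10 genes, exons of Polr2b, a subunit gene of RNA polymerase II, overlap the 3′ end of Igfbp7, which encodes a secreted binding protein, by 85 bases on the other strand. Polr2b was listed at 23761 to 59693 normalized counts over the 9 libraries and Igfbp7 at 56.7 to 141, a pair named after its values were seen. The count may therefore be of the strand opposite to a gene, which would bear on every value given here, those of Cdkn1a and the GADD45 genes included. This was not tested. Another pair on opposite strands, Smarcd3 and Chpf2, was also looked at after its values were seen. Smarcd3 stood at 415 to 1135 normalized counts and Chpf2 at 124 to 584, and the annotated 3′ end of Chpf2 lay in no exon of Smarcd3. The 10 genes together held 0.0208% of all 6303233 reads.

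**Figure D5:**
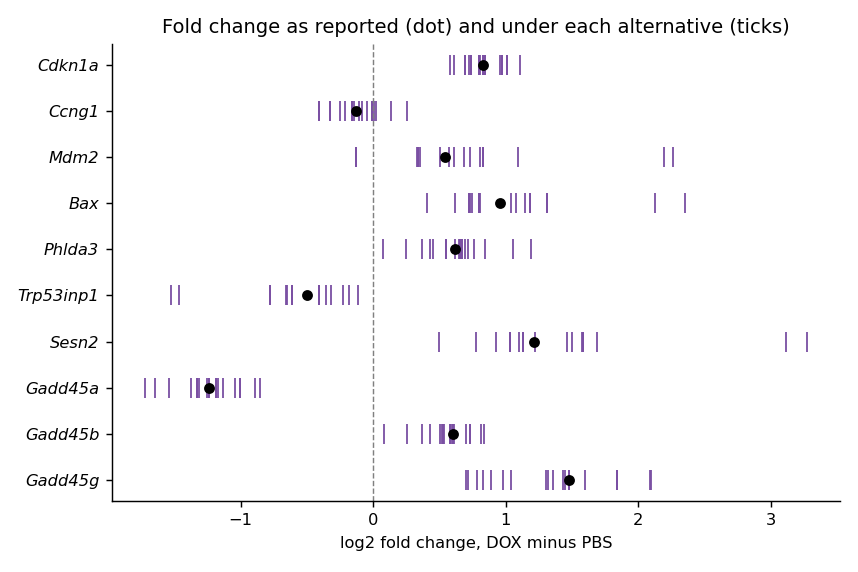
Fitted log2 fold change, DOX minus PBS (horizontal axis), of each gene as reported (dot) and under each alternative of test, scaling, filter or left-out library (ticks). Cdkn1a, Gadd45b and Gadd45g stay above 0 and Gadd45a below it in all 20 alternatives, while ticks of Ccng1 and Mdm2 lie on both sides of 0.

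Across the alternatives in test, scaling, pseudocount, filter and left-out libraries, 18 to 20 for each gene, no member was called. Before adjustment, p was under 0.05 in at least 1 alternative for Cdkn1a, Gadd45a, Gadd45g and Sesn2. The log2 fold change of Cdkn1a ran from 0.58 to 1.11, that of Gadd45b from 0.080 to 0.84 and that of Gadd45g from 0.70 to 2.10. The value of Gadd45a ran from -1.72 to -0.85. Adjusted p ran from 0.496 to 0.921 for Cdkn1a and from 0.697 to 0.931 for Gadd45a (limma, edgeR or DESeq2). The lowest value for Gadd45b was the one without both PBS replicate 4 and DOX replicate 2.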

How the data were processed

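RNA of sorted fibroblasts from 9 mice (4 PBS, 5 DOX; separate biological replicates per the labels) was profiled by MARS-seq. Mapping by the authors used STAR on mm10, and counting used HTSeq with a RefSeq annotation. The sources used here do not give versions, strand setting or the use of molecular tags. What the authors deposited is a normalized signal for each gene, in 9 tables of 55421 lines. In each library 100% of values were whole multiples of 1 step (tolerance 1e-06), whose reciprocal was the median-of-ratios size factor over 2919 genes, so that reads could be recovered. Repeated symbols (119) were summed. Chi-square per degree of freedom was 8.51 to 41.4 between libraries of a group, so that none was a repeat of another.

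Groups were compared on log2(value + 1), which understates changes of low genes, by limma 3.58.1 under R 4.3.3 (trended variance), with Benjamini-Hochberg adjustment over all genes fitted. The fit was also run on simulated reads with a common dispersion and changes only in genes at the level tested. Its outcome is not given here. Recovered reads were tested with limma-voom, edgeR 4.0.16 and DESeq2 1.42.0. Alternatives also covered scaling, pseudocount, filters, leaving out each replicate, a block for replicate numbers and a pan-immune covariate. Members and gene lists were chosen with earlier results of these data known. Every member is named, and from other p53 pathway lists the tested genes, at most 4 a list by mean value, with the 3 genes of highest and of lowest correlation with the member of highest mean and any gene overlapping a member's exons on the other strand. Of the genes this rule names, 1 is not reported here. Egr1, Junb, Trp53, Col1a1, Col1a2, Gsn, Lum, Pdgfra, Ly6g, S100a8, Sftpc, Sftpb, Cdh1, Lin37, Polr2b, Igfbp7, Smarcd3 and Chpf2 were named outside this rule. Positions are from GENCODE M21 and promoters from RefSeq (GRCm38.p6).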

Additional observations from a re-analysis of the deposited data

Results flagged for a closer look

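In each group the highest and the lowest library were compared with the rest by Dixon's ratio at its 95% critical value. Of 20 member groups 4 had such a library, and of all 54 groups examined, marker and pathway sums included, 11 did. This ratio alone marks about 5% of groups by chance where values are normally distributed. Many of these groups hold low counts and zeros, and some lists share genes, so that their chance rate is not known. Mdm2 was at 13.3 normalized counts in DOX replicate 5, where the other DOX libraries were at 0 to 2.78. Phlda3 was at 44.5 in DOX replicate 2 against 2.04 to 11.1 in the others of its group. Gadd45a was at 20.4 in DOX replicate 1 against 2.56 to 6.13. Sesn2 was at 0.999 in PBS replicate 1, which is 1 read, against 0 in the other PBS libraries. With 1 read against libraries at 0 the ratio is always 1, so that this value shows nothing, and the count of 4 includes it.

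Among sums over lists, the p53 targets of metabolism and secretion reached 77.4 normalized counts in DOX replicate 2, against 30.6 to 40.9 in the other DOX libraries. The partners of GADD45 proteins reached 20.1 in PBS replicate 2, against 8.84 to 10.5. PBS replicate 4 was far from the other PBS libraries in 5 sums. The BCL-2 family beside Bax was at 239 against 117 to 127, granulocyte markers at 1121 against 28.0 to 36.6, pan-immune markers at 279 against 5.28 to 11.4, epithelial markers at 483 against 15.8 to 36.6 and red blood cell markers at 81.8 against 0 to 6.31. The same library was the highest of its group for Cdkn1a and Phlda3 and the lowest for Gadd45b and Gadd45g, and the part of these cell types in those values was not tested.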

How the results depend on the processing

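The count of genes called among those tested was 0 by limma, and it was 1 with DESeq2 on recovered reads and 3 with no filter on low values, none of them a member; the cause was not tested. Over all genes above 0 limma called 3, edgeR 32, limma-voom 1, limma on TMM-scaled CPM 1, DESeq2 0, and limma 10 with a pseudocount of 0.5 and 0 with 5. Leaving out any 1 replicate gave 0. No alternative called a member. The log2 fold change of Ccng1, with 6 reads in all, was reversed without PBS replicate 1 (0.0065) or 4 (0.14), without PBS replicate 4 and DOX replicate 2 together (0.25) and with the pan-immune covariate (0.018). Mdm2 was reversed without DOX replicate 5 (-0.13). With each replicate left out in turn, log2 fold changes ran from 0.58 to 1.11 for Cdkn1a, -1.65 to -0.89 for Gadd45a, 0.25 to 0.84 for Gadd45b, 0.83 to 2.10 for Gadd45g, 0.076 to 1.19 for Phlda3, 0.62 to 1.31 for Bax, 0.78 to 1.58 for Sesn2, -0.78 to -0.11 for Trp53inp1, -0.33 to 0.14 for Ccng1 and -0.13 to 0.83 for Mdm2. Deviations from the group means correlated weakly between same-numbered PBS and DOX libraries, at 0.021 to 0.066 (0 of 4 pairs over 0.1). Pairs of differing number lay at -0.080 to 0.040, and 3 of 4 PBS libraries correlated best with their own number. Whether the numbers mark pairs was not settled by these values. With the replicate number as a block, which drops DOX replicate 5, limma called 0 genes, 161 had an unadjusted p under 0.05 against 162 without it, and Mdm2 was at -0.13. The mean of 5 of the 10 genes was under 5 normalized counts, so that few reads bear on them.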
